A study of Mus musculus with 50 samples.

Results

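Regulatory T (Treg) cells are CD4 T cells that depend on the transcription factor Foxp3 and hold immune responses in check. Here Treg cells of visceral fat (VAT) were set against those of lung and liver, to see which genes set the fat population apart from Treg cells of other non-lymphoid organs. The members were 10 of the 50 libraries of the series: VAT PBS replicates 1 to 4, lung PBS replicates 1 to 3 and liver PBS replicates 1 to 3, chosen by their titles alone, with no measured value. Lung and liver had equal weight, so each fold change is VAT over the average of the lung and liver group means. All 10 libraries are labelled as male mice of genotype WT at 20 weeks of age, on a B6.129(Cg) background with the Foxp3tm3(HBEGF/GFP)Ayr allele. That allele places GFP and the diphtheria toxin receptor under the Foxp3 locus, so that toxin removes Treg cells. The series text describes littermates with and without the receptor, given toxin at 12 weeks of age on 3 days and rested for 8 to 9 weeks. The sample titles, however, name the arms PBS and DT, and only these names are used here. Whether each library came from its own mouse is not stated. The p-values therefore reflect variation among libraries, part of which may be technical. Each library was made from polyadenylated RNA of 500 to 1000 CD4+ Foxp3-GFP+ cells, sorted a second time for purity after a digestion that differed by tissue. Tissue and digestion protocol therefore cannot be told apart in any comparison below.

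Fat Treg cells are known in mice for a lipid-handling programme that depends on PPARg, a nuclear receptor activated by fatty acids. They are also known for the IL-33 receptor ST2 (encoded by Il1rl1), through which stromal IL-33 supports their numbers, and for effector molecules such as IL-10. Treg cells of lung and liver share part of this tissue programme with them, including ST2, KLRG1 and amphiregulin (Areg). Naive and recirculating T cells, in contrast, carry the homing receptor CCR7, which leads cells into lymph nodes. All gene levels below are CPM, each library's counts scaled to a common total with TMM factors, given per library in replicate order. Levels are not corrected for transcript length, so they compare libraries and not genes.

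The 10 libraries held 3278421 to 5663805 counts. Marker sums are CPM without the TMM factors. The defining markers of T cells and Treg cells summed to 6152 to 7756 CPM in VAT, against 5730.2 to 6942 CPM in lung and liver, and none was at 0. Adipocyte markers were at or near 0 everywhere, with sums of 0.598 to 11.2 CPM in VAT and 5.09 to 12.7 CPM in lung and liver, and Adipoq and Plin1 averaged 0.180 and 0.148 CPM in VAT. Plasma cell markers summed to 397, 99.7, 1.72 and 685 CPM in VAT replicates 1 to 4, against 3.82 to 11.1 CPM in lung and liver. Nearly all of it was Jchain, the joining chain of secreted antibodies, with a mean of 286 CPM in VAT. B cell markers, carried by Ighm, summed to 3876, 894, 402 and 6006 CPM in VAT, against 690.1 to 1528 CPM in lung and liver, while Ms4a1 stayed under 2 CPM on average in every group. VAT replicates 1 and 4 thus held the most of these transcripts and replicate 3 the least, and counts below are also given without those 2 libraries. The mesothelial sum of 107 to 169 CPM in VAT, against 0.786 to 10.7 CPM in lung and liver, rested on Lrrn4, since Msln, Upk3b and Wt1 averaged under 1 CPM in VAT. Other sums differed mainly through 1 gene each. The endothelial sum was 63.4 to 98.2 CPM in VAT and 177 to 266 CPM in lung and liver, mostly Pecam1. The hepatocyte sum was 18.9 to 37.4 CPM in VAT and 135 to 293 CPM in lung and liver, mostly Trf. The dendritic cell sum was 10.8 to 24.4 CPM in VAT and 45.9 to 79.9 CPM in lung and liver, led by Zbtb46. The lung epithelial sum was 52.4 to 120.3 CPM in VAT and 33.8 to 59.8 CPM in lung and liver, led by Epcam. Cdh5, Clec9a, Alb and Sftpc, defining genes of those cell types, averaged at most 7.22 CPM in any of the 3 groups. Lung replicate 1 held 63.8 CPM of macrophage and monocyte markers, led by Lyz2, and 68.8 CPM of alveolar macrophage markers, led by Chil3. Lung replicates 2 and 3 held 20.4 and 5.70 CPM of the former and 4.88 and 0.982 CPM of the latter. The part these cells play in the differences below was not tested.

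**Figure D1:**
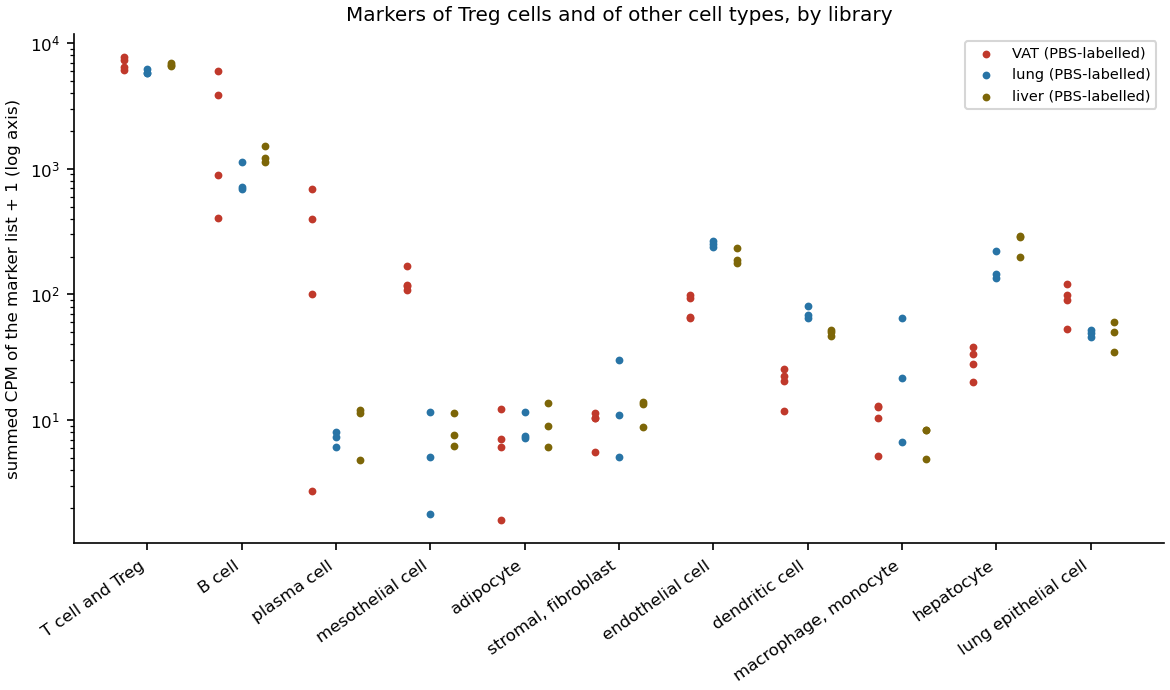
Summed CPM (plus 1, log axis) of the marker lists of Treg cells and of 10 other cell types in each PBS-labelled library, with VAT left of lung and liver; each point is 1 library. The VAT libraries spread from 1.72 to 685 CPM for plasma cells, while their Treg sums of 6152 to 7756 CPM lie near those of lung and liver.

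VAT Treg cells differed from lung and liver Treg cells in a large part of the transcriptome. Of 17731 genes tested, 3500 passed an adjusted p of 0.05 (19.7%): 1958 were higher in VAT (11% of the genes tested) and 1542 lower (8.7%). The change exceeded 2-fold in 1922 of them and 4-fold in 734. In 1503 genes (8.48%) all 4 VAT libraries lay above all 6 others, and in 1122 (6.33%) below. Without VAT replicates 1 and 4 the count was 2255. Which direction held more genes depended on the scaling and the filter: 1744 were higher and 1763 lower with RLE size factors, 1871 and 2026 with DESeq2, and 1504 and 1546 among genes averaging 10 CPM or more. Foxp3 itself did not pass the test, with 409, 322, 490.4 and 329 CPM in the VAT libraries, against 372, 295 and 353 CPM in lung and 342, 269 and 356 CPM in liver (log2 fold change 0.23 ± 0.17 (SE), adjusted p = 0.39). The same held for the Treg factor Ikzf2 (Helios; 0.06 ± 0.12, adjusted p = 0.75) and for the inhibitory receptor Ctla4 (-0.01 ± 0.17, adjusted p = 0.971), where the VAT libraries overlapped those of lung and liver.

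**Figure D2:**
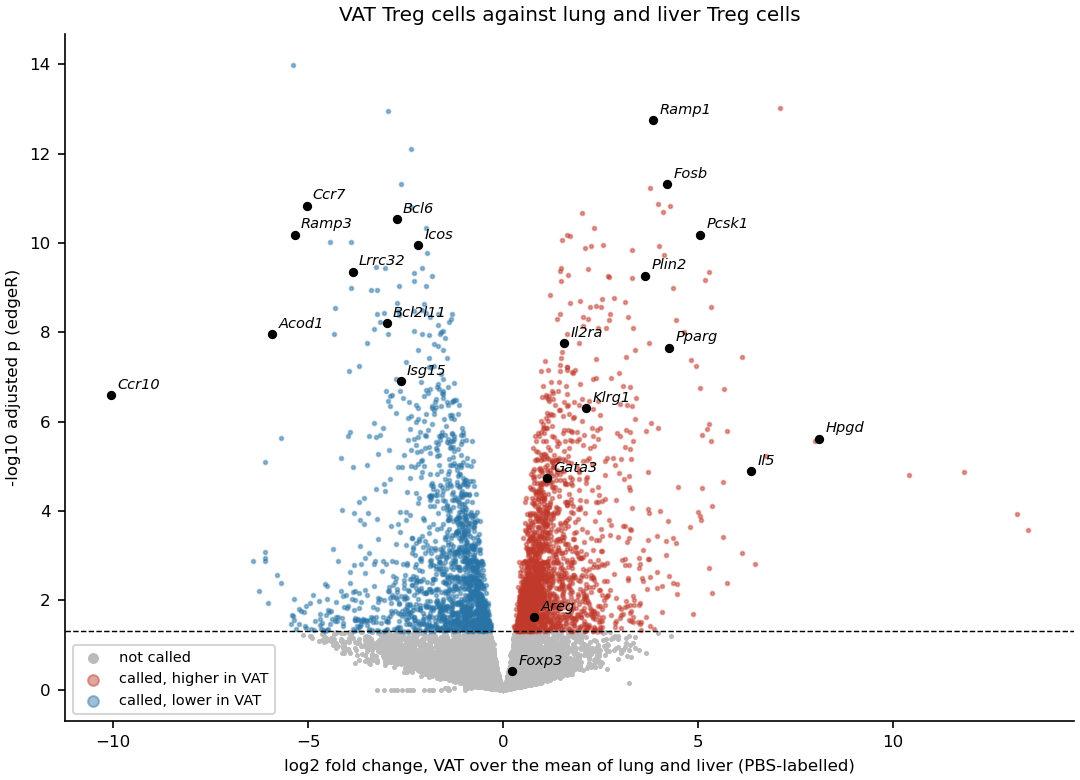
Log2 fold change of VAT over the mean of lung and liver (x axis) and -log10 adjusted p (y axis) for the 17731 genes tested, PBS-labelled libraries; the dashed line is an adjusted p of 0.05. The 1958 genes called higher lie to the right and the 1542 called lower to the left, with Ramp1, Pparg and Hpgd on one side and Ccr7, Acod1 and Ccr10 on the other, and Foxp3 below the line. Folds beyond about 8 on this axis come from genes at or near 0 counts in one group and depend on how the fit handles zeros.

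The largest increases were in genes that lung and liver Treg cells barely used. Hpgd, whose enzyme inactivates prostaglandin E2, had 19.3, 18.7, 46.0 and 80.8 CPM in the VAT libraries, against 0, 0 and 0 CPM in lung and 0, 1.98 and 0.267 CPM in liver (log2 fold change 8.11 ± 1.1 (SE), adjusted p = 2.39e-06). It lies at chr8:56294585-56321043, in mm10 coordinates of GENCODE M21. With no count in the 3 lung libraries, its level in VAT was at least 174-fold higher than in lung, against a floor of 3 counts over the group. Il5, the cytokine that sustains eosinophils, had 21.7, 79.0, 26.3 and 12.2 CPM in the VAT libraries, against 0, 1.76 and 0 CPM in lung and 0, 0.881 and 0 CPM in liver (6.36 ± 0.98, adjusted p = 1.27e-05). Cyp11a1, which cleaves the cholesterol side chain in the first step of steroid hormone synthesis, had 39.2, 86.6, 47.8 and 62.7 CPM in the VAT libraries, against 0, 0.881 and 0 CPM in lung and 0, 5.06 and 2.67 CPM in liver (6.14 ± 0.69, adjusted p = 3.64e-08). The genes of largest change were chosen so that VAT did not overlap lung or liver. In each of these 3 genes the lowest VAT library lay far above the highest lung or liver library. Pcsk1, a prohormone convertase, was more abundant, with 182, 429, 319 and 142 CPM in the VAT libraries, against 7.63, 14.1 and 4.20 CPM in lung and 7.32, 7.04 and 8.56 CPM in liver (5.06 ± 0.41, adjusted p = 6.53e-11). Cxcl2, a chemokine that attracts neutrophils, had 278, 456, 718 and 107 CPM in the VAT libraries, against 4.27, 4.99 and 2.94 CPM in lung and 10.5, 30.6 and 34.0 CPM in liver (5.28 ± 0.47, adjusted p = 4.54e-10). All liver libraries lay above all lung libraries for this gene. Its neighbour Cxcl3 rose as well, with 42.3 CPM on average in VAT and at most 2.42 CPM in any lung or liver library (5.32 ± 0.75, adjusted p = 2.73e-06). Reads of the 2 chemokine genes, which are similar in sequence, may be shared.

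The other genes of this group were a protease, a potassium channel, an adhesion receptor and less studied proteins. Bace2, an aspartyl protease, had 28.4, 237, 39.9 and 11.4 CPM in the VAT libraries, against 0.225, 4.70 and 0.210 CPM in lung and 0.431, 1.32 and 2.41 CPM in liver (5.76 ± 0.79, adjusted p = 1.59e-06). One VAT library, replicate 2, held most of that signal. The other 3 still exceeded all lung and liver libraries, as the choice of these genes required. Kcna4, a voltage-gated potassium channel, averaged 59.7 ± 31.8 CPM in VAT, 0.937 ± 0.886 in lung and 1.53 ± 1.78 in liver (SD, n = 4, 3 and 3; 5.68 ± 0.69, adjusted p = 1.88e-07). Adgrg3, an adhesion G protein-coupled receptor, averaged 31.9 ± 17.4 CPM in VAT, 0.592 ± 0.578 in lung and 0.989 ± 0.833 in liver (5.32 ± 0.52, adjusted p = 2.67e-09). Lrrn4, a leucine-rich repeat protein that also stood in the mesothelial marker list, had 117, 172, 111 and 116 CPM in the VAT libraries, against 0.225, 6.17 and 0.210 CPM in lung and 4.95, 5.06 and 9.09 CPM in liver (5.19 ± 0.48, adjusted p = 6.78e-10). Ier3, an immediate early gene, averaged 51.2 ± 34.3 CPM in VAT, 1.13 ± 1.18 in lung and 2.16 ± 1.68 in liver (5.05 ± 0.60, adjusted p = 1.78e-07). The transmembrane protein gene Tmem273 averaged 45 ± 18.4 CPM in VAT, 0.853 ± 1.3 in lung and 2.78 ± 1.99 in liver (4.95 ± 0.57, adjusted p = 5.55e-08). For all 12 genes the VAT mean also exceeded the means of PBS-labelled spleen and ear skin. Ear skin came closest for Adgrg3, with 27.3 CPM, and Pcsk1, with 181 CPM. These comparisons with spleen and ear skin were not tested.

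**Figure D3:**
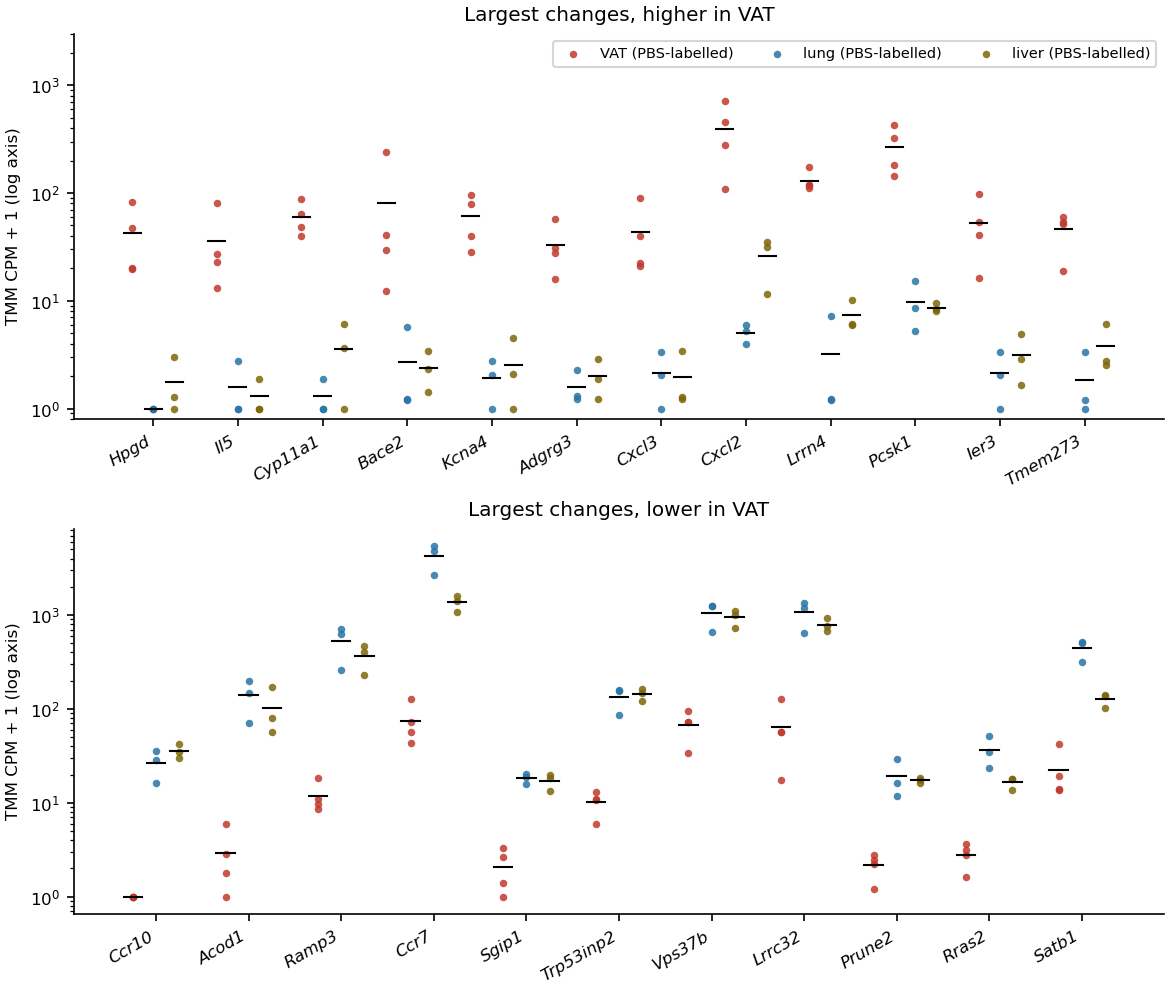
TMM CPM plus 1 (log axis) in each PBS-labelled library for the 12 largest increases (top) and 11 of the largest decreases (bottom) in VAT; each point is 1 library, the black line is the group mean, and VAT stands left of lung and liver. In every gene shown the VAT libraries do not overlap the lung and liver libraries, as the choice of these genes required. Ccr7, Vps37b and Lrrc32 reach above 1000 CPM in some lung or liver libraries.

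On the other side stood genes that were far lower in VAT, some of them nearly absent there. Ccr10, a receptor for chemokines of skin and mucosal surfaces, had no count in any VAT library, against 34.8, 27.6 and 15.1 CPM in lung and 28.6, 40.9 and 34.0 CPM in liver. It lies at chr11:101172997-101175443 (mm10). Its level in VAT was thus at least 206-fold lower than the lung and liver average, against a floor of 3 counts over the 4 VAT libraries. Acod1, which makes itaconate, had 4.88, 1.85, 0 and 0.798 CPM in the VAT libraries, against 147, 69.6 and 197 CPM in lung and 171, 78.4 and 56.1 CPM in liver (log2 fold change -5.92 ± 0.63 (SE), adjusted p = 1.12e-08). Ramp3, an accessory protein that sets the ligand choice of calcitonin-family receptors, had 8.67, 7.59, 17.5 and 9.98 CPM in the VAT libraries, against 632, 261 and 709 CPM in lung and 471, 407 and 229 CPM in liver (-5.34 ± 0.43, adjusted p = 6.53e-11). Ccr7, the lymph node homing receptor, had 70.8, 55.4, 42.0 and 126 CPM in the VAT libraries, against 5386, 2653 and 4789.8 CPM in lung and 1602, 1407 and 1081 CPM in liver (-5.04 ± 0.38, adjusted p = 1.46e-11). The highest VAT library, at 126 CPM, lay far below the lowest of the others, at 1081 CPM. Lrrc32 encodes GARP, which holds latent TGF-beta on the Treg surface, and had 55.6, 16.4, 55.6 and 126 CPM in the VAT libraries, against 1346, 648 and 1199.8 CPM in lung and 679, 920.4 and 772 CPM in liver (-3.86 ± 0.34, adjusted p = 4.39e-10). Vps37b, a subunit of the ESCRT-I sorting complex, had 92.8, 33.0, 70.7 and 71.6 CPM in the VAT libraries, against 1234, 661 and 1255 CPM in lung and 1094, 996 and 736 CPM in liver (-3.89 ± 0.32, adjusted p = 9.67e-11).

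Satb1, a chromatin organiser of T cells, averaged 21.2 ± 13.4 CPM in VAT, 446 ± 111 in lung and 126 ± 22.1 in liver (SD, n = 4, 3 and 3; -3.48 ± 0.38, adjusted p = 1.73e-08). Trp53inp2, which takes part in autophagy, averaged 9.17 ± 2.94 CPM in VAT, 133 ± 41.7 in lung and 142 ± 20.9 in liver (-3.90 ± 0.37, adjusted p = 1.02e-09). Rras2, a small GTPase, averaged 1.80 ± 0.850 CPM in VAT, 35.7 ± 14.3 in lung and 15.5 ± 2.34 in liver (-3.68 ± 0.42, adjusted p = 5.70e-08). Sgip1 and Prune2 were low in all tissues, with averages of 1.07 CPM in VAT, 17.3 in lung and 16.1 in liver for Sgip1 and 1.16 CPM in VAT, 18.1 in lung and 16.3 in liver for Prune2. In 9 of these 11 genes the lung mean exceeded the liver mean. In 10 of the 11 the mean of PBS-labelled spleen was below both the lung and the liver means, and in 4 below the VAT mean as well. Acod1, for example, averaged 0.0767 CPM in spleen, Ramp3 3.48 CPM and Vps37b 41.8 CPM. For these 4 genes VAT was thus not the tissue with the lowest mean. The ear skin mean was above the VAT mean for all 11.

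Pparg and its target Plin2 were higher in VAT, while other lipid genes changed in both directions or were not called. Pparg, the nuclear receptor known for fat Treg cells, lies at chr6:115360951-115490399 (mm10) and had 68.3, 107, 84.5 and 80.6 CPM in the VAT libraries, against 5.39, 1.76 and 3.78 CPM in lung and 4.52, 9.47 and 1.34 CPM in liver (log2 fold change 4.27 ± 0.47 (SE), adjusted p = 2.20e-08). Plin2, which coats lipid droplets and is a known PPARg target, had 519, 674, 751 and 269.8 CPM in the VAT libraries, against 45.6, 32.6 and 25.4 CPM in lung and 46.1, 92.5 and 32.3 CPM in liver (3.64 ± 0.33, adjusted p = 5.40e-10). Both were above every lung and liver library, and Plin2 was named under that condition. Of 28 tested members of the PPARg and lipid handling list, 5 were called higher and 4 lower, with a median log2 fold change of 0.02, against -0.05 over all genes tested. These are 17.9% higher and 14.3% lower, beside 11% and 8.7% of all genes tested, and 19 members were not called. The shares of the other lists below stand against the same 11% and 8.7%, unless another comparison is named. Alternatives also changed the calls over all genes, so member counts under them do not stand against these shares. Without VAT replicate 2 the higher count of this list was 3, with 1323 of all 17691 genes tested called higher. Other higher members included Hilpda, an inhibitor of lipolysis (1.35 ± 0.29, adjusted p = 8.04e-04) and the hormone-sensitive lipase Lipe (0.70 ± 0.24, adjusted p = 0.0321). Dgat1 and Dgat2, the enzymes of the last step of triglyceride synthesis, were lower. Dgat1 had 624, 525, 865 and 206 CPM in the VAT libraries, against 1975, 1363 and 2088 CPM in lung and 2720.1, 2293 and 1728 CPM in liver (-1.86 ± 0.28, adjusted p = 5.00e-06). Dgat2 averaged 31.2 ± 12.2 CPM in VAT, 235 ± 77.3 in lung and 126 ± 34.8 in liver (-2.47 ± 0.42, adjusted p = 3.86e-05). The other lower members, Scd1 and Slc27a2, were under 3 CPM on average in all 3 tissues. The fatty acid receptor Cd36, often named for fat Treg cells, was near 0 with 4.52, 4.51, 0.201 and 0.200 CPM in the VAT libraries, against 2.47, 0.587 and 0.210 CPM in lung and 0.431, 0 and 1.34 CPM in liver (1.54 ± 1.17, adjusted p = 0.39). Fabp4 averaged 1.63 CPM in VAT, 1.1 in lung and 0.215 in liver (1.66 ± 1.14, adjusted p = 0.337).

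Genes of mitochondrial fatty acid oxidation were shifted upward by small amounts. Of 22 tested members 12 (54.5%) were called higher and 2 (9.09%) lower, with a median log2 fold change of 0.50. Cpt1a, which admits fatty acids to the mitochondrion, had 208, 239, 241 and 159.8 CPM in the VAT libraries, against 113, 109.5 and 87.9 CPM in lung and 104, 131 and 130.2 CPM in liver (0.92 ± 0.18, adjusted p = 2.42e-04). The acyl-CoA dehydrogenases Acadvl (0.85 ± 0.14, adjusted p = 3.56e-05) and Acadm (0.96 ± 0.21, adjusted p = 0.00127) and the electron carrier subunit Etfb (1.11 ± 0.18, adjusted p = 2.54e-05) were also higher. Lack of overlap between VAT and the other tissues was a condition of naming them. The thioesterase Acot2 (-1.29 ± 0.23, adjusted p = 7.99e-05) and the nuclear receptor Ppard (-1.01 ± 0.32, adjusted p = 0.0215) were lower. The higher count moved with single libraries. It was 6 without VAT replicate 2, lung replicate 1, liver replicate 2 or the pair of VAT replicates 1 and 4, and 7 without VAT replicate 3 or 4. With no filter on low counts it was 5. The calls over all genes fell as well, from 1958 of 17731 higher to 1323 of 17691 without VAT replicate 2. They were 1183 of 19310 without VAT replicates 1 and 4 and 1529 of 49822 with no filter. Against liver alone 4 members (18.2%) were called higher, beside 5.85% of all genes tested. Against lung alone 10 (45.5%) were called higher, beside 9.6%.

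Cholesterol synthesis showed a mixed pattern, with 6 of 24 members (25%) higher, 2 (8.33%) lower and a median of -0.01. Against lung 7 (29.2%) were higher and 2 (8.33%) lower, beside 9.6% and 8.12% of all genes tested. Against liver 2 (8.33%) were higher and 4 (16.7%) lower, beside 5.85% and 6.12%. Lss, lanosterol synthase, had 33.2, 59.5, 46.8 and 64.7 CPM in the VAT libraries, against 11.2, 11.7 and 9.44 CPM in lung and 18.3, 31.3 and 23.8 CPM in liver (1.65 ± 0.29, adjusted p = 6.14e-05). Sqle, squalene epoxidase, averaged 80.5 ± 30.5 CPM in VAT, 26.6 ± 5.51 in lung and 41.2 ± 7.98 in liver (1.28 ± 0.32, adjusted p = 0.00368). Its call was lost without VAT replicate 2 (adjusted p = 0.0572, with 7.28e-08 the lowest over all alternatives), where 2 members of the list rather than 6 were higher. Mvk, mevalonate kinase at an early step, had 10.1, 14.6, 8.43 and 13 CPM in the VAT libraries, against 224, 40.8 and 223 CPM in lung and 64.4, 44.2 and 33.2 CPM in liver (-2.93 ± 0.43, adjusted p = 4.27e-06). The demethylase Cyp51 was lower as well (-1.04 ± 0.25, adjusted p = 0.00283), and 4 members rather than 2 were lower under 5 of the alternatives, DESeq2 among them. Among 12 tested targets of the oxysterol receptor LXR, 3 (25%) were higher and 0 lower, with 1 or 2 lower under 11 of the alternatives. The higher members were led by the phospholipid enzyme gene Lpcat3 (0.91 ± 0.17, adjusted p = 1.64e-04) and by the small GTPase gene Arl4c (0.68 ± 0.16, adjusted p = 0.00245). Without VAT replicates 1 and 4 the call of Arl4c was lost (adjusted p = 0.069, the highest of its 20 alternatives, with 9.62e-04 the lowest). The cholesterol exporters Abca1 (-1.16 ± 0.44, adjusted p = 0.0628) and Abcg1 (-0.39 ± 0.20, adjusted p = 0.179) did not pass.

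Of the IL-33 receptor and type 2 genes, more were higher than lower in VAT. Of 24 tested members 10 (41.7%) were called higher and 4 (16.7%) lower, with a median log2 fold change of 0.67. Against lung 9 (37.5%) were higher and 4 (16.7%) lower (median 0.81), beside 9.6% and 8.12% of all genes tested. Against liver the split was closer, with 7 (29.2%) higher and 5 (20.8%) lower (median 0.18), beside 5.85% and 6.12%. In the DT arm 6 (25%) were higher and 5 (20.8%) lower, beside 7.31% and 6.09%. Il1rl1, which encodes ST2, had 946, 1104, 1327 and 575 CPM in the VAT libraries, against 396, 310.4 and 418 CPM in lung and 616, 448 and 352 CPM in liver (log2 fold change 1.23 ± 0.25 (SE), adjusted p = 4.48e-04). VAT replicate 4 overlapped the liver values and the other 3 VAT libraries did not. Gata3, the factor that drives ST2 expression in T cells, had 1917, 2361, 2393 and 1454 CPM in the VAT libraries, against 833, 644 and 1019 CPM in lung and 1162, 1123 and 806 CPM in liver (1.13 ± 0.18, adjusted p = 1.84e-05). Klrg1, a receptor of differentiated T cells, had 1917, 2447, 2150.1 and 1180.4 CPM in the VAT libraries, against 349.6, 449.8 and 301 CPM in lung and 465, 425 and 670.0 CPM in liver (2.14 ± 0.28, adjusted p = 4.90e-07). Il10, the suppressive cytokine, had 397, 255, 296 and 69.2 CPM in the VAT libraries, against 27.2, 57.0 and 19.1 CPM in lung and 36.6, 121 and 84.7 CPM in liver (2.28 ± 0.38, adjusted p = 3.40e-05). VAT replicate 4 lay inside the liver range. Areg, a growth factor for tissue repair, had 834, 429, 1013 and 348 CPM in the VAT libraries, against 225, 246 and 289 CPM in lung and 456, 684 and 525 CPM in liver (0.81 ± 0.26, adjusted p = 0.0237). It was higher than in lung (1.37 ± 0.32, adjusted p = 0.00229), and the difference from liver did not pass (0.24 ± 0.31, adjusted p = 0.696). Its call was lost in 6 of 20 alternatives, over which the adjusted p ran from 4.85e-06 to 0.238. These were DESeq2, lung and liver pooled as 1 group, and leaving out lung replicate 1, liver replicate 1, VAT replicate 1 or VAT replicate 3.

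Other type 2 genes moved the opposite way. Il4ra, the shared receptor chain for IL-4 and IL-13, had 424, 268, 412 and 417 CPM in the VAT libraries, against 1498, 851 and 1418 CPM in lung and 1187, 1057 and 876 CPM in liver (-1.59 ± 0.19, adjusted p = 8.78e-08). The IL-18 receptor chain Il18r1 (-1.70 ± 0.25, adjusted p = 5.82e-06) and the transcription factor Nfil3 (-1.76 ± 0.31, adjusted p = 7.74e-05) were lower too. Rora, a nuclear receptor of tissue Treg cells and type 2 innate lymphoid cells, had 548, 653, 568 and 462 CPM in the VAT libraries, against 666, 411 and 659.7 CPM in lung and 1055, 989.9 and 734 CPM in liver. It did not pass the test (-0.39 ± 0.18, adjusted p = 0.134). Hpgds, a prostaglandin D synthase, averaged 16.3 CPM in VAT, 2.38 in lung and 6.35 in liver (2.08 ± 0.43, adjusted p = 4.88e-04). Dusp1, a phosphatase of the MAP kinases, was the most abundant riser of the list, with 5117, 5140.0, 6775 and 2938 CPM in the VAT libraries, against 996, 703 and 883 CPM in lung and 1515, 2239 and 1952 CPM in liver (1.96 ± 0.19, adjusted p = 1.95e-09). Of 8 tested markers of type 2 innate lymphoid cells, 3 were called higher, Il5, Hpgds and Il9r, and 0 lower. Over all genes tested 11% were higher and 8.7% lower. The summed level of these markers was 551 to 879 CPM in VAT and 505 to 1080 CPM in lung and liver. The sum was mostly Rora, with means of 544 CPM in VAT, 553 in lung and 864 in liver without the TMM factors. It therefore says little about the content of these cells. The part of these cells in the result was not tested. In bulk libraries fewer cells of a type and less RNA per cell cannot be told apart.

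Genes of Treg identity were divided. Of 26 tested, 7 (26.9%) were higher and 9 (34.6%) lower in VAT, with a median of -0.21. Il2ra, the high-affinity chain of the IL-2 receptor, had 773, 980.4, 1359.6 and 689 CPM in the VAT libraries, against 348, 365 and 349 CPM in lung and 267, 273 and 329.9 CPM in liver (1.57 ± 0.17, adjusted p = 1.76e-08). Socs2, a target of IL-2 and STAT5 signalling, had 164, 151, 178 and 144 CPM in the VAT libraries, against 36.6, 39.3 and 16.6 CPM in lung and 40.3, 30.6 and 36.9 CPM in liver (2.26 ± 0.19, adjusted p = 1.18e-10). Fgl2, a secreted suppressor, had 760.0, 1446, 1208 and 829 CPM in the VAT libraries, against 126, 154 and 52.9 CPM in lung and 119, 265 and 284 CPM in liver (2.76 ± 0.33, adjusted p = 1.07e-07). All 3 stood above every lung and liver library, a condition under which Socs2 and Fgl2 were named. The falling members included the costimulatory receptor Icos, with 533, 263, 488 and 347 CPM in the VAT libraries, against 1660.1, 1389.7 and 1737 CPM in lung and 2394, 2288 and 1731 CPM in liver (-2.18 ± 0.18, adjusted p = 1.13e-10). Cd83, a surface protein of activated cells, had 175, 56.4, 66.4 and 168 CPM in the VAT libraries, against 837, 619.8 and 1022 CPM in lung and 1469.9, 1814 and 1124 CPM in liver (-3.24 ± 0.32, adjusted p = 3.90e-09). Itgae (CD103), the integrin chain that binds E-cadherin, averaged 96.1 ± 47.5 CPM in VAT, 472 ± 117 in lung and 779 ± 27.2 in liver (-2.66 ± 0.27, adjusted p = 4.00e-09). Nt5e (CD73), which makes adenosine, averaged 101 CPM in VAT, 352 in lung and 402 in liver (-1.90 ± 0.22, adjusted p = 5.89e-08). Tigit (-0.68 ± 0.15, adjusted p = 0.00154) and Tnfrsf4 (OX40; -0.55 ± 0.15, adjusted p = 0.00875) fell by less.

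Among 30 tested transcription factors of tissue Treg cells, 8 (26.7%) were higher and 10 (33.3%) lower. Besides Gata3, the risers were led by Zeb2, with 24.9, 81.2, 59.2 and 38.7 CPM in the VAT libraries, against 5.39, 5.87 and 0.629 CPM in lung and 2.80, 3.30 and 6.15 CPM in liver (3.68 ± 0.51, adjusted p = 1.59e-06). Rbpj, the DNA-binding partner of Notch, had 74.1, 151, 76.3 and 67.9 CPM in the VAT libraries, against 22.5, 24.7 and 36.3 CPM in lung and 28.2, 32.1 and 28.1 CPM in liver (1.69 ± 0.22, adjusted p = 6.71e-07). Prdm1 (Blimp-1; 0.89 ± 0.17, adjusted p = 2.24e-04), Id2 (0.72 ± 0.19, adjusted p = 0.00544) and Maf (0.70 ± 0.19, adjusted p = 0.00637) rose by less. Batf, which shapes tissue Treg cells, had 192, 213, 199 and 193 CPM in the VAT libraries, against 254, 257 and 245 CPM in lung and 284, 279.6 and 262 CPM in liver. All VAT libraries lay below all others, yet the gene missed the threshold (-0.40 ± 0.15, adjusted p = 0.0512). It was called in 7 of 20 alternatives, over which the adjusted p ran from 0.0036 to 0.259. Irf4 did not pass (0.32 ± 0.22, adjusted p = 0.343). Bcl6, the repressor known from follicular T cells, had 15.5, 11.7, 12.8 and 19.2 CPM in the VAT libraries, against 117, 59.0 and 106 CPM in lung and 103, 113 and 90.1 CPM in liver (-2.72 ± 0.21, adjusted p = 2.87e-11). Bhlhe40, a stress-responsive repressor, had 117, 61.5, 107 and 97.8 CPM in the VAT libraries, against 472, 319 and 531 CPM in lung and 614, 864 and 484 CPM in liver (-2.48 ± 0.28, adjusted p = 4.68e-08). Hif1a (-1.07 ± 0.20, adjusted p = 1.74e-04), Ahr (-1.34 ± 0.30, adjusted p = 0.00147) and Ikzf3 (-0.79 ± 0.14, adjusted p = 6.22e-05) were lower as well.

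Naive and recirculating T cell genes were lower in VAT almost throughout. Of 22 tested, 16 (72.7%) were called lower and 1 (4.55%) higher, with a median log2 fold change of -1.33. This was the largest share of lower members of any list. Ccr7 and Satb1, described above, were among the lower members. S1pr1, the receptor by which T cells leave tissues, had 278, 149, 201 and 226 CPM in the VAT libraries, against 1043, 716 and 1083 CPM in lung and 975, 664 and 592 CPM in liver (-1.98 ± 0.26, adjusted p = 6.73e-07). Foxo1, which drives Ccr7, had 59.4, 42.3, 56.8 and 61.1 CPM in the VAT libraries, against 166, 132 and 173 CPM in lung and 121, 116 and 114 CPM in liver (-1.3 ± 0.13, adjusted p = 3.90e-09). Lef1 (-1.35 ± 0.21, adjusted p = 9.50e-06), Tcf7 (-1.38 ± 0.39, adjusted p = 0.00953) and Bach2 (-1.47 ± 0.32, adjusted p = 0.00106), factors of the naive state, fell too. Ccr9, a gut homing receptor, was the exception with 47.0 CPM in VAT, 4.17 in lung and 6.73 in liver (3.13 ± 0.46, adjusted p = 3.72e-06). Il7r did not pass (0.16 ± 0.25, adjusted p = 0.706). Markers of conventional CD4 T cells summed to 64.8 to 126 CPM in VAT and 137 to 175 CPM in lung and liver. Of these markers Bcl6 was called lower and Cd40lg higher, and their part in the result was not tested.

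Chemokine receptors and other migration genes were divided, with 6 of 23 (26.1%) higher and 8 (34.8%) lower. Ccr1, a receptor for inflammatory chemokines, had 169, 382, 231 and 113 CPM in the VAT libraries, against 27.4, 23.5 and 6.50 CPM in lung and 17.9, 14.5 and 11.5 CPM in liver (3.74 ± 0.40, adjusted p = 1.70e-08). Cxcr6, a receptor of tissue-resident T cells, had 585, 910.2, 794 and 309 CPM in the VAT libraries, against 73.9, 61.7 and 31.5 CPM in lung and 73.4, 85 and 77.0 CPM in liver (3.30 ± 0.30, adjusted p = 6.16e-10). Ccr2, which binds CCL2, had 1165, 1422, 1112 and 697 CPM in the VAT libraries, against 296, 324 and 261 CPM in lung and 626, 477 and 599.7 CPM in liver (1.43 ± 0.21, adjusted p = 6.36e-06). The lower members included Gpr55 (-1.88 ± 0.30, adjusted p = 1.51e-05), Gpr15 (-1.55 ± 0.37, adjusted p = 0.00261), Ccr6 (-0.92 ± 0.29, adjusted p = 0.0201) and Ccr4 (-0.60 ± 0.20, adjusted p = 0.0298). Ccr8, a receptor of activated tissue Treg cells, did not pass against the average (-0.05 ± 0.24, adjusted p = 0.918), against lung (0.72 ± 0.29, adjusted p = 0.0844) or against liver (-0.82 ± 0.28, adjusted p = 0.0535).

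Of 25 integrin and adhesion genes, 8 (32%) were higher and 5 (20%) lower. Cd44, the hyaluronan receptor of antigen-experienced cells, had 919.7, 1315, 1218 and 697 CPM in the VAT libraries, against 373, 359 and 298 CPM in lung and 542, 559 and 468 CPM in liver (1.29 ± 0.16, adjusted p = 3.08e-07). The adhesion molecule L1cam averaged 250.4 ± 56.3 CPM in VAT, 80.3 ± 6.74 in lung and 90.6 ± 17.4 in liver (1.55 ± 0.20, adjusted p = 3.66e-07). The collagen-binding chain Itga1 averaged 19.3 CPM in VAT, 5.03 in lung and 4.09 in liver (2.1 ± 0.58, adjusted p = 0.00878). Itga4, an integrin chain of T cell trafficking, averaged 422 CPM in VAT, 164 in lung and 249 in liver (1.06 ± 0.17, adjusted p = 1.65e-05). Itgb1, the partner of both of those chains, averaged 137 CPM in VAT, 439 in lung and 591 in liver (-1.89 ± 0.27, adjusted p = 3.69e-06). The tetraspanin gene Cd9 was lower as well (-2.39 ± 0.33, adjusted p = 1.43e-06). The higher count was 5 without VAT replicate 1 and 5 without VAT replicates 1 and 4. Of all genes tested, 1541 of 17680 and 1183 of 19310 were higher in these settings, in that order.

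Genes of the accessory proteins Ramp1 and Ramp3, which set the ligand choice of the calcitonin receptor-like receptor, changed in opposite directions. Ramp1, which makes it a receptor for the neuropeptide CGRP, had 323, 642, 445 and 205 CPM in the VAT libraries, against 25.8, 25.8 and 25.6 CPM in lung and 25.4, 34.1 and 30.7 CPM in liver (log2 fold change 3.86 ± 0.24 (SE), adjusted p = 1.80e-13). Ramp3, described above, was at 7.59 to 17.5 CPM in VAT and 229 to 709 CPM in the other libraries. The receptor gene itself, Calcrl, averaged 59.9 CPM in VAT, 25.2 in lung and 28.5 in liver (1.16 ± 0.29, adjusted p = 0.00376). Of the 20 neuropeptide, adenosine and cyclic AMP genes 5 (25%) were higher and 7 (35%) lower. The opioid precursor Penk averaged 167 CPM in VAT, 49.1 in lung and 101 in liver (1.24 ± 0.36, adjusted p = 0.0134). The ecto-enzyme Cd38 averaged 63.9 CPM in VAT, 11.9 in lung and 39.5 in liver (1.56 ± 0.37, adjusted p = 0.00209). Among the phosphodiesterases that break down cyclic AMP, Pde4b had 96.5, 28.5, 43.8 and 73.6 CPM in the VAT libraries, against 274, 289 and 354 CPM in lung and 295, 279.8 and 269.8 CPM in liver (-2.27 ± 0.24, adjusted p = 9.43e-09). Pde4d (-1.65 ± 0.24, adjusted p = 5.51e-06) and Pde7a (-1.83 ± 0.25, adjusted p = 1.11e-06) were lower too. The adenosine receptor Adora2a was lower too (-1.07 ± 0.16, adjusted p = 5.69e-06).

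Immediate early genes, led by the AP-1 genes Fos and Fosb, were often higher in VAT. Of 30 tested, 14 (46.7%) were called higher and 3 (10%) lower, with a median of 0.62. Fos had 3093, 3026, 2812 and 893 CPM in the VAT libraries, against 113, 84.9 and 148 CPM in lung and 221, 274 and 133 CPM in liver (log2 fold change 3.98 ± 0.30 (SE), adjusted p = 1.32e-11). Its relative Fosb had 583, 522, 500 and 172 CPM in the VAT libraries, against 18.4, 27.9 and 15.7 CPM in lung and 28.0, 25.1 and 32.1 CPM in liver (4.20 ± 0.30, adjusted p = 4.90e-12). Zfp36, which destabilises cytokine transcripts, had 999, 1089.5, 1296 and 369 CPM in the VAT libraries, against 101, 80.2 and 119.6 CPM in lung and 180.2, 203 and 233 CPM in liver (2.71 ± 0.25, adjusted p = 5.72e-10). VAT replicate 4 was the lowest of the 4 VAT libraries in each of these genes. It was still above every lung and liver library, as the choice of these genes required. Jun had 594, 639, 537 and 366 CPM in the VAT libraries, against 75, 48.7 and 65.0 CPM in lung and 465, 641 and 345 CPM in liver (1.61 ± 0.19, adjusted p = 1.62e-07). It was higher than in lung (3.08 ± 0.26, adjusted p = 4.56e-10), and the difference from liver did not pass (0.14 ± 0.23, adjusted p = 0.765). With lung and liver pooled as 1 group it lost its call (adjusted p = 0.229, the highest of its 20 alternatives, with 1.63e-21 the lowest). Junb (1.05 ± 0.19, adjusted p = 7.12e-05), Klf4 (2.16 ± 0.35, adjusted p = 1.70e-05) and Gadd45b (2.07 ± 0.29, adjusted p = 2.00e-06) were higher as well. Of 16 heat shock genes 0 were called against the average of lung and liver, with 1 to 4 lower under 9 of the alternatives. Results differed by tissue. Against liver 6 (37.5%) were lower, beside 6.12% of all genes tested, and 0 higher, with a median of -0.68. Against lung 0 were lower and 2 (12.5%) higher, near the 9.6% of all genes tested, with a median of 0.31. Immediate early and heat shock genes respond quickly to cell handling, and the digestion differed by tissue, so tissue and preparation cannot be told apart here.

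Genes downstream of the T cell receptor did not follow as a group, with 6 of 24 (25%) higher, 7 (29.2%) lower and a median of 0.00. Cd69, an early activation and retention marker, had 1370.2, 1063, 1149.8 and 635 CPM in the VAT libraries, against 197, 187 and 255 CPM in lung and 295, 362 and 268 CPM in liver (2.04 ± 0.21, adjusted p = 7.37e-09). Myc, a driver of cell growth, averaged 222 CPM in VAT, 114 in lung and 122 in liver (0.91 ± 0.19, adjusted p = 5.60e-04). Nr4a1, an early readout of receptor signals, did not pass (0.51 ± 0.25, adjusted p = 0.152). Tnfrsf9 was lower (-1.01 ± 0.23, adjusted p = 0.00135). Without VAT replicates 1 and 4, 3 members rather than 7 were called lower. There 1072 of all 19310 genes tested were lower, against 1542 of 17731 with all libraries.

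NF-kB genes were lower in VAT. Of 17 tested, 12 (70.6%) were called lower and 3 (17.6%) higher, with a median of -0.94. Nfkb2, a subunit of the alternative pathway, had 165, 152, 189.9 and 179.8 CPM in the VAT libraries, against 863, 461 and 846 CPM in lung and 617, 547 and 414 CPM in liver (-1.84 ± 0.21, adjusted p = 5.89e-08). Its partner Relb averaged 91.4 CPM in VAT, 433 in lung and 311 in liver (-2.01 ± 0.29, adjusted p = 3.96e-06). Rel (c-Rel), which Treg cells need for their development, averaged 223 ± 84.5 CPM in VAT, 560.1 ± 169.6 in lung and 582 ± 38.8 in liver (-1.36 ± 0.20, adjusted p = 3.91e-06). The inhibitor gene Nfkbie had 96.5, 66.7, 63.0 and 67.5 CPM in the VAT libraries, against 228, 212 and 259 CPM in lung and 221, 165 and 209 CPM in liver (-1.55 ± 0.16, adjusted p = 9.43e-09). The survival gene Birc3 had 159.8, 161, 199.5 and 127 CPM in the VAT libraries, against 359, 406 and 446 CPM in lung and 447, 400.2 and 402 CPM in liver (-1.34 ± 0.14, adjusted p = 4.91e-09). Rela did not pass (-0.35 ± 0.15, adjusted p = 0.103). Nfkbid (1.56 ± 0.24, adjusted p = 1.30e-05), Tnip3 (2.45 ± 0.45, adjusted p = 1.04e-04) and Nfkbia (0.63 ± 0.18, adjusted p = 0.00975), which encode inhibitors or regulators of the pathway, were the higher members. PBS-labelled spleen averaged 103 CPM for Relb and 153 CPM for Nfkb2. VAT held 91.4 CPM of Relb and 172 CPM of Nfkb2, and the difference from spleen was not tested.

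Interferon response genes were lower in VAT. Of 30 tested, 21 (70%) were called lower and 0 higher (1 higher without lung replicate 2), with a median log2 fold change of -1.49. Isg15, a ubiquitin-like modifier, had 6.68, 4.10, 7.43 and 4.79 CPM in the VAT libraries, against 23.8, 27.3 and 39.2 CPM in lung and 35.7, 43.6 and 47.6 CPM in liver (log2 fold change -2.63 ± 0.31 (SE), adjusted p = 1.22e-07). Irf7, the factor that amplifies the response, had 40.5, 38.0, 37.1 and 50.5 CPM in the VAT libraries, against 145, 173 and 189.9 CPM in lung and 212, 147 and 182 CPM in liver (-2.07 ± 0.18, adjusted p = 3.68e-10). Ifi27l2a, the most abundant of them, had 346, 275, 284 and 383 CPM in the VAT libraries, against 1084, 1291 and 1229 CPM in lung and 1556, 1028 and 1484 CPM in liver (-1.99 ± 0.16, adjusted p = 4.58e-11). The GTPase gene Gbp3 had 116, 62.2, 97.4 and 125 CPM in the VAT libraries, against 347, 237 and 304 CPM in lung and 206, 228 and 203 CPM in liver (-1.33 ± 0.18, adjusted p = 8.22e-07). None of the 4 genes overlapped between VAT and the other libraries, as the rule for naming list members required. Rsad2 (viperin; -3.04 ± 0.50, adjusted p = 2.53e-05) and Ifit1 (-2.06 ± 0.43, adjusted p = 6.53e-04), both antiviral effectors, were lower too. Rsad2 averaged 2.66 CPM in VAT, 13.4 in lung and 37.6 in liver, and Ifit1 averaged 7.16 CPM in VAT, 24.7 in lung and 37.1 in liver. The signalling gene Stat2 did not pass (0.01 ± 0.16, adjusted p = 0.979). Of the sensors, Ifih1 was lower (-1.02 ± 0.32, adjusted p = 0.0209) and Ddx58 did not pass (-0.20 ± 0.18, adjusted p = 0.454).

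The promoters of the interferon response list were searched for the interferon-stimulated response element, taken as GAAA, any 2 bases and GAAA again. Both strands were read, and overlapping matches were counted separately. The windows run from 250 bases before to 50 bases after the first start site that RefSeq lists for a gene on GRCm38.p6, and positions count the start site as 1. Of the 30 genes 23 had a window, and 16 of these (69.6%) held a match, against 3.02% of the 12100 promoters of tested genes and 3.49% of all 27025 promoters. The share was 10 of 15 among members called lower and 6 of 8 among those that did not pass. The list was chosen as interferon response genes, so its share describes the list and not the difference in VAT. The 4 windows below are shown with each match in capitals, 3 from genes called lower and Irgm1 as one that held a match and did not pass (0.25 ± 0.20, adjusted p = 0.413). They lie at chr4:156200769-156201068 (minus strand) for Isg15, chr12:26456403-26456702 (minus strand) for Rsad2, chr19:34640639-34640938 (plus strand) for Ifit1 and chr11:48871371-48871670 (minus strand) for Irgm1.
Isg15: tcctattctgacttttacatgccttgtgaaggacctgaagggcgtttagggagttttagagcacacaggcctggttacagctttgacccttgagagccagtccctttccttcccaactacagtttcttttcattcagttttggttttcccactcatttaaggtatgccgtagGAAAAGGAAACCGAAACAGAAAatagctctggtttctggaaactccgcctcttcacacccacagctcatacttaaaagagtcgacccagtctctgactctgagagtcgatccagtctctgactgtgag
Rsad2: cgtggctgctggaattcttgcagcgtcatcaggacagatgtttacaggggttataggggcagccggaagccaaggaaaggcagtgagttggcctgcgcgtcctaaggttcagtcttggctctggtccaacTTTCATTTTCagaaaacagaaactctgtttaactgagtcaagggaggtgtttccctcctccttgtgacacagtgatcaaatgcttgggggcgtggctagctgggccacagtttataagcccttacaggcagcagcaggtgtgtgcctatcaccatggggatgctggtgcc
Ifit1: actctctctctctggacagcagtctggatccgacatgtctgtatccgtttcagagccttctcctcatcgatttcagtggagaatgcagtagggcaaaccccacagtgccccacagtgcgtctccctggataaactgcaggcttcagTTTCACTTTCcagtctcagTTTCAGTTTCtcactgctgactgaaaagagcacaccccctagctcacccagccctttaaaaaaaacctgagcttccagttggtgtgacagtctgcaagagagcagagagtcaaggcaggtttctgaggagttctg
Irgm1: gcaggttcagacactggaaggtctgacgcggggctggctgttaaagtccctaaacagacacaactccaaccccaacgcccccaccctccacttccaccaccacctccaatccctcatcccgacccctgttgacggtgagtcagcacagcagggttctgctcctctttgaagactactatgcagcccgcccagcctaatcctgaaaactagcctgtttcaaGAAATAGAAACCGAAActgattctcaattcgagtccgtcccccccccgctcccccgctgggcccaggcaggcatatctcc
The first match begins at position -78 in Isg15, -120 in Rsad2, -104 in Ifit1 and -30 in Irgm1, counted along the gene's strand. Matches overlap in Isg15 and Irgm1. A match describes the letters only. For the immediate early genes, the cyclic AMP response element spelled TGACGTCA stood in 2 of the 13 members called higher that had a window, Dusp1 and Ppp1r15a. It stood in 1 of the 9 that did not pass and in 0 of the 2 called lower. The share was 2.99% among promoters of tested genes and 1.88% among all promoters.

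Cell cycle genes were lower in VAT, with 11 of 28 (39.3%) called lower, none higher and a median of -0.79. Mki67, the common proliferation marker, averaged 57.0 CPM in VAT, 149.6 in lung and 184 in liver (-1.54 ± 0.39, adjusted p = 0.00396). Top2a, which untangles DNA, averaged 80.0 CPM in VAT, 275 in lung and 266 in liver (-1.76 ± 0.44, adjusted p = 0.0034). The cyclin gene Ccne2 averaged 5.90 ± 0.811 CPM in VAT, 22.2 ± 7.22 in lung and 20.6 ± 9.37 in liver (-1.85 ± 0.39, adjusted p = 6.66e-04). The replication licensing genes Mcm2 to Mcm7 did not pass. Without VAT replicate 4 the lower count was 17, and the same number was found with no filter on low counts. Of all genes tested, 1547 of 17681 and 1460 of 49822 were lower in these settings, in that order.

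Receptors that inhibit or costimulate T cells were lower more often than higher, with 11 of 23 (47.8%) lower and 5 (21.7%) higher. Cd274 (PD-L1) had 86.7, 56.8, 71.5 and 70 CPM in the VAT libraries, against 122, 134 and 167 CPM in lung and 289, 234 and 221 CPM in liver (-1.39 ± 0.14, adjusted p = 5.95e-09). Cd27 had 514, 283, 409 and 398 CPM in the VAT libraries, against 911, 625 and 986 CPM in lung and 848, 785 and 796 CPM in liver (-1.04 ± 0.14, adjusted p = 1.39e-06). Cd28 (-0.70 ± 0.16, adjusted p = 0.00123), Btla (-1.42 ± 0.26, adjusted p = 1.24e-04) and Cd96 (-1.44 ± 0.26, adjusted p = 7.43e-05) were lower as well. Cd200r1, an inhibitory receptor for CD200, was higher, with 323, 442, 514 and 235 CPM in the VAT libraries, against 44.7, 34.6 and 55.8 CPM in lung and 146, 121 and 106 CPM in liver (2.34 ± 0.19, adjusted p = 4.58e-11). Pdcd1 (PD-1) did not pass, with 432, 542, 732 and 361 CPM in the VAT libraries, against 488, 413 and 443 CPM in lung and 517, 755 and 477 CPM in liver (0.02 ± 0.18, adjusted p = 0.967).

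Secreted effector and repair genes were higher in 8 of 21 (38.1%) and lower in 2 (9.52%), with a median of 0.81. Mmp9, a matrix-degrading protease, had 320.2, 475, 187 and 97.6 CPM in the VAT libraries, against 6.29, 16.4 and 7.76 CPM in lung and 23.5, 25.8 and 37.2 CPM in liver (log2 fold change 4.0 ± 0.34 (SE), adjusted p = 1.18e-10). Lgals3, a galectin, had 491, 593, 564 and 383 CPM in the VAT libraries, against 156, 225 and 82.9 CPM in lung and 175, 177 and 162 CPM in liver (1.64 ± 0.29, adjusted p = 7.45e-05). Ebi3, a subunit of IL-35 and IL-27, averaged 75.6 CPM in VAT, 29.2 in lung and 45.7 in liver (1.05 ± 0.20, adjusted p = 1.68e-04). Tgfb1 averaged 29.4 CPM in VAT, 16.4 in lung and 15 in liver (0.91 ± 0.29, adjusted p = 0.0209). Gzmb, granzyme B, was lower (-1.41 ± 0.35, adjusted p = 0.00313). Of 22 Th1-like and cytotoxic genes 2 (9.09%) were higher and 4 (18.2%) lower, beside 11% and 8.7% of all genes tested. Without VAT replicate 1, 1 was higher. Il12rb1, an IL-12 receptor chain, averaged 213 ± 30.1 CPM in VAT, 49.1 ± 11.9 in lung and 109 ± 14.4 in liver (1.54 ± 0.20, adjusted p = 7.65e-07). Fasl, a death ligand, averaged 4.97 ± 3.26 CPM in VAT, 22.8 ± 8.15 in lung and 29.6 ± 13.8 in liver (-2.37 ± 0.38, adjusted p = 1.79e-05). Tbx21, the Th1 factor T-bet, did not pass (0.26 ± 0.45, adjusted p = 0.731).

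Members of the Bcl2 family, which governs programmed cell death, changed both ways, with 4 of 14 (28.6%) higher and 3 (21.4%) lower. Without VAT replicates 1 and 4, 2 were higher, with 1183 of all 19310 genes tested called higher there. Bcl2l11, which encodes the death inducer Bim, had 24.2, 10.1, 24.1 and 25.1 CPM in the VAT libraries, against 361, 194 and 337 CPM in lung and 118, 90.3 and 67.4 CPM in liver (log2 fold change -2.98 ± 0.31 (SE), adjusted p = 6.19e-09). Bcl2l1, which encodes the survival protein Bcl-xL, had 441, 411, 568 and 327 CPM in the VAT libraries, against 225, 164 and 165 CPM in lung and 158, 208 and 174 CPM in liver (1.26 ± 0.17, adjusted p = 1.23e-06). Bcl2 itself was lower (-1.26 ± 0.28, adjusted p = 9.87e-04) and Mcl1 did not pass (0.09 ± 0.16, adjusted p = 0.739).

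Glycolysis and hypoxia genes were divided, with 4 of 23 (17.4%) higher and 5 (21.7%) lower. Against lung 8 (34.8%) were higher and 4 (17.4%) lower, beside 9.6% and 8.12% of all genes tested. Against liver 1 (4.35%) was higher and 6 (26.1%) lower, beside 5.85% and 6.12%. Without VAT replicate 4, 2 were higher, and the same number without VAT replicates 1 and 4. Slc2a3, a glucose transporter, had 304, 331, 243 and 199.8 CPM in the VAT libraries, against 84.9, 57.8 and 77.8 CPM in lung and 118, 97.5 and 171 CPM in liver (1.47 ± 0.17, adjusted p = 5.47e-08). Slc16a3, the lactate exporter MCT4, had 18.4, 23.0, 24.7 and 22.4 CPM in the VAT libraries, against 127, 83.4 and 128 CPM in lung and 77.3, 94.4 and 111 CPM in liver (-2.22 ± 0.30, adjusted p = 9.96e-07). Ldha (-0.19 ± 0.14, adjusted p = 0.359) and Gapdh (-0.17 ± 0.21, adjusted p = 0.613) did not pass. Of 20 metallothionein, glutathione and iron genes 7 (35%) were higher and 2 (10%) lower, with 1 lower without VAT replicates 1 and 4. Mt1, which binds zinc and copper, averaged 56.5 CPM in VAT, 19.5 in lung and 22.5 in liver (1.43 ± 0.37, adjusted p = 0.0053). Txnip, an inhibitor of thioredoxin, averaged 387 CPM in VAT, 105 in lung and 228 in liver (1.32 ± 0.22, adjusted p = 2.92e-05). Fth1, ferritin heavy chain, had 1022, 979.5, 838 and 820.2 CPM in the VAT libraries, against 2351, 1227 and 2084 CPM in lung and 1541, 1347 and 1121 CPM in liver (-0.80 ± 0.15, adjusted p = 1.20e-04). Of 18 antigen presentation genes 2 (11.1%) were higher and 4 (22.2%) lower, beside 11% and 8.7% of all genes tested. H2-Eb1, an MHC class II chain, averaged 32 ± 8.31 CPM in VAT, 3.87 ± 2.27 in lung and 9.73 ± 4.24 in liver (2.37 ± 0.45, adjusted p = 1.65e-04). Ctss (cathepsin S) averaged 67.3 ± 39.5 CPM in VAT, 247 ± 29.3 in lung and 233 ± 23.2 in liver (-1.83 ± 0.23, adjusted p = 4.46e-07). Cd86, a costimulatory ligand, averaged 10.3 ± 4.36 CPM in VAT, 54.7 ± 20.9 in lung and 32.5 ± 8.78 in liver (-2.02 ± 0.31, adjusted p = 1.00e-05).

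**Figure D4:**
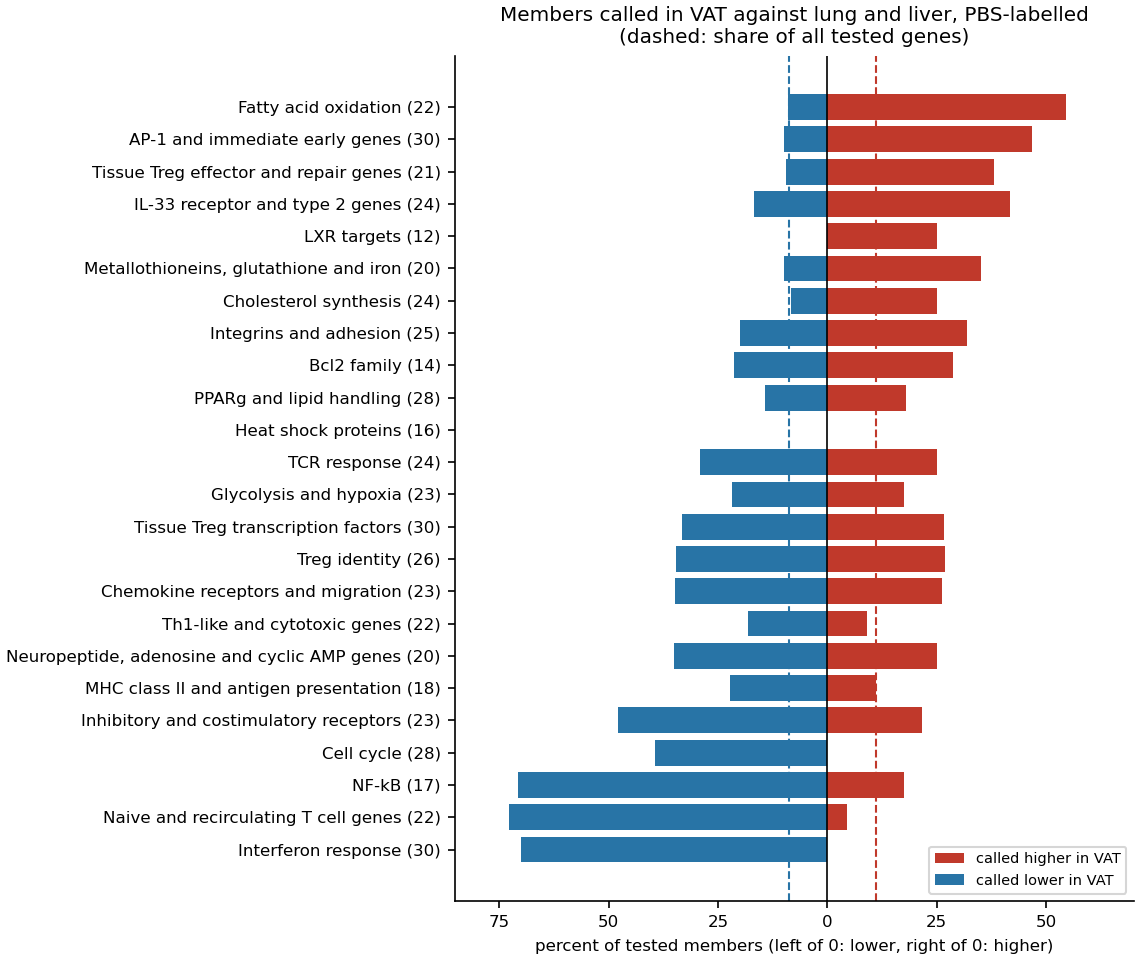
Share of tested members of each gene list called higher (right of 0) or lower (left of 0) in VAT than in lung and liver, PBS-labelled libraries; numbers of tested members are in brackets, and dashed lines mark the 11% and 8.7% of all tested genes. Naive T cell, NF-kB and interferon genes reach farthest to the left, and fatty acid oxidation and immediate early genes farthest to the right.

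Set against each tissue in turn, VAT differed from lung in 3142 genes (17.7%), 1702 of them higher (9.6%) and 1440 lower (8.12%). It differed from liver in 2122 genes (12%), 1037 of them higher (5.85%) and 1085 lower (6.12%). These comparisons share the VAT libraries, and their values are given side by side only. Without liver replicate 2 the count against liver was 1341. Interferon genes were lower in 16 of 30 (53.3%) against lung and 21 of 30 (70%) against liver. Naive T cell genes were lower in 15 of 22 (68.2%) against lung and 12 of 22 (54.5%) against liver. These shares stand beside the 8.12% and 6.12% of all genes tested. Cyp11a1 had a log2 fold change of 7.77 against lung and 4.51 against liver. For Cxcl2 it was 6.6 against lung and 3.97 against liver, for Ccr7 -5.86 and -4.21, and for Pparg 4.51 and 4.03. All of the 24 largest changes were called in both comparisons, which together make up the contrast by which these genes were chosen.

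Liver and lung Treg cells differed far less from each other, with 111 genes called (0.626%), 85 of them higher in liver (0.479%) and 26 lower (0.147%). Jun had 465, 641 and 345 CPM in liver, against 75, 48.7 and 65.0 CPM in lung (log2 fold change 2.94 ± 0.27 (SE), adjusted p = 3.19e-08). Hspa1a, an inducible heat shock protein, had 441, 909 and 259 CPM in liver, against 9.65, 0.881 and 2.94 CPM in lung (6.84 ± 1.09, adjusted p = 0.00121). Hsph1, another chaperone, had 828, 1916 and 326 CPM in liver, against 226, 91.6 and 58.3 CPM in lung (3.03 ± 0.62, adjusted p = 0.0121). VAT held 21.5, 28.9, 7.23 and 179 CPM of Hspa1a. In the other direction Satb1 had 139.9, 101 and 138 CPM in liver, against 508, 318 and 512 CPM in lung (-1.82 ± 0.41, adjusted p = 0.0238). Tubb2a, a tubulin, had 90.4, 64.3 and 37.4 CPM in liver, against 607, 209 and 476 CPM in lung (-2.75 ± 0.39, adjusted p = 1.63e-04). Atp1b1, Tnfsf8 and Bach2 were also lower in liver than in lung. The count moved with single libraries. It was 26 without lung replicate 1, 43 without lung replicate 3, and 67, 59 and 52 without liver replicates 1, 2 and 3. Without lung replicate 2 it rose to 131, with 71 higher in liver and 60 lower. That library had the fewest counts of the 10 compared (3278421). It also had the most detected genes, 32497, with 27904 the next highest.

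The DT-labelled libraries, 4 of VAT and 3 each of lung and liver from mice of the same age and strain, repeat the comparison with no library in common. There 2376 genes were called (13.4%), 1297 higher (7.31%) and 1079 lower (6.09%). Of the 3500 genes called in the PBS arm, 1756 were called the same way in the DT arm (50.2% of the PBS calls and 73.9% of the DT calls) and 0 the opposite way. The sign was the same in 96.3% of the PBS calls, against 68.4% of the genes not called in the PBS arm. All 24 of the largest changes were called again. Pparg had 36.7, 78.4, 51.8 and 11.7 CPM in VAT, against 10.8, 5.13 and 2.57 CPM in lung and 6.26, 4.43 and 1.97 CPM in liver (3.09 ± 0.45, adjusted p = 7.99e-06). Ccr7 had 33.5, 59.9, 92.5 and 107 CPM in VAT, against 4315, 2606 and 3360.2 CPM in lung and 822, 1639 and 506 CPM in liver (-4.66 ± 0.37, adjusted p = 1.19e-10). The list shares of the DT arm stand beside 7.31% higher and 6.09% lower of all genes tested. There 11 of 17 NF-kB genes (64.7%) were lower and 1 (5.88%) higher, and 12 of 30 interferon genes (40%) were lower and 1 (3.33%) higher. Naive T cell genes were lower in 9 of 22 (40.9%) and higher in 2 (9.09%). Immediate early genes were higher in 12 of 30 (40%) and lower in 4 (13.3%). Fatty acid oxidation genes were higher in 4 of 22 (18.2%) and lower in 1 (4.55%). Effector and repair genes were higher in 2 of 21 and lower in 2, which is 9.52% each way, beside 7.31% and 6.09% of all genes tested.

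Several genes of the fat Treg programme did not pass the test in the DT arm. Gata3 had 1530.3, 1547, 1719.5 and 1487 CPM in VAT, against 1237, 1451 and 782 CPM in lung and 1501, 1490.1 and 923 CPM in liver (0.35 ± 0.18, adjusted p = 0.223), beside 1.13 ± 0.18 in the PBS arm. Il10 had 81.0, 194, 171 and 75.5 CPM in VAT, against 32.3, 84.4 and 24.9 CPM in lung and 261, 119.8 and 222 CPM in liver (0.42 ± 0.38, adjusted p = 0.547), beside 2.28 ± 0.38. Il1rl1 (0.48 ± 0.25, adjusted p = 0.227) and Fgl2 (0.80 ± 0.32, adjusted p = 0.0974) did not pass either. The difference between arms did not pass for these 4 genes: it was -0.78 ± 0.26 for Gata3 (adjusted p = 0.543), -1.86 ± 0.55 for Il10 (adjusted p = 0.466), -0.75 ± 0.36 for Il1rl1 (adjusted p = 0.755) and -1.96 ± 0.46 for Fgl2 (adjusted p = 0.264).

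Tested across all genes, the difference between arms passed in 2 genes (0.0113%) with edgeR, 6 with limma and 12 with DESeq2. An unadjusted p under 0.05 was found for 1157 genes (6.53%). The test of this difference recovered 40% of simulated 2-fold changes set in PBS-labelled VAT and 44% of those set in DT-labelled VAT. A difference that did not pass, as for Gata3, Il10, Il1rl1 and Fgl2, therefore does not show that the arms agree. Frmd6, a FERM domain protein, had 53.2, 26.7, 48.3 and 51.6 CPM in DT-labelled VAT, against 24.7, 9.03, 15.3 and 20.6 CPM in PBS-labelled VAT. In lung and liver it ran from 38.0 to 66.0 CPM in the DT arm and from 67.6 to 84.8 CPM in the PBS arm (difference between arms 2.0 ± 0.33, adjusted p = 0.0155). Pdcd1 had 249, 338, 194 and 206 CPM in DT-labelled VAT, against 432, 542, 732 and 361 CPM in PBS-labelled VAT, with 596, 575 and 459 CPM in lung and 1009, 761 and 932 CPM in liver of the DT arm (difference -1.52 ± 0.26, adjusted p = 0.0155). No gene passed without VAT PBS replicate 3, VAT DT replicate 5 or VAT DT replicate 8, and 8 did without VAT PBS replicate 4. The DT-labelled VAT libraries also carried other cells unevenly. Plasma cell markers summed to 878, 6.72, 662 and 1.28 CPM in replicates 5 to 8, and stromal markers to 571 CPM in replicate 7, against 3.64 to 10.3 CPM in the other 3. Without VAT DT replicates 5 and 7 and VAT PBS replicates 1 and 4, 1286 genes were called in the DT arm and 19 for the difference. The part of those cells was not tested.

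**Figure D5:**
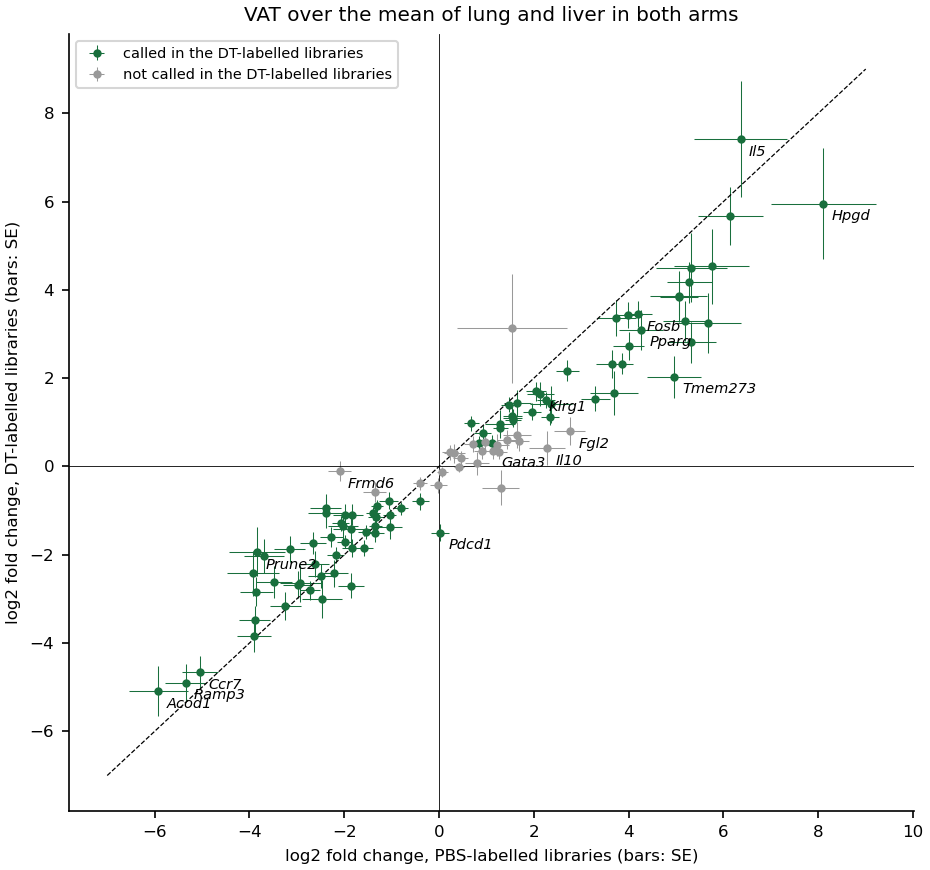
Log2 fold change of VAT over the mean of lung and liver in the PBS-labelled (x axis) and DT-labelled libraries (y axis), with SE bars, for the described genes other than Ccr10; the dashed line is equality, and green genes were also called in the DT arm. Most genes keep their sign and several lie closer to 0 in the DT arm, Frmd6 lies near 0 and Pdcd1 at -1.5 on the y axis.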

How the data were processed

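The deposited table holds whole-number gene counts of 50 bulk RNA-seq libraries by symbol. The authors aligned reads to mm10 with STAR 2.7.3a and counted them by featureCounts, as the submitters' processing notes list. Annotation, strandedness and treatment of multi-mapped reads: not given in the sources used here, so reads of similar or overlapping genes cannot be told apart. The extract protocol in the labels speaks of muscle stem cells, which are not among the libraries compared.

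From the counts, CPM with TMM factors and fold changes were computed with edgeR 4.0.16 (limma 3.58.1, R 4.3.3). One quasi-likelihood model covered the 32 libraries of spleen, lung, liver, ear skin and VAT in both arms, so that all groups share the estimate of spread. The filter filterByExpr (minimum count 10, minimum total 15) left 17731 genes. Contrasts were VAT against the mean of lung and liver in each arm, VAT against lung, VAT against liver, liver against lung, and the difference between arms. P-values were adjusted by the Benjamini-Hochberg method over all genes tested, with a threshold of 0.05. The ± after a fold change is an approximate standard error. It was taken as the size of the log2 fold change divided by the square root of the F statistic. Counts were simulated with known changes in VAT alone, set only in genes averaging 10 CPM or more, 100 genes per fold size. Of these changes the main contrast recovered 65% at 2-fold and 100% at 4-fold, with 15689 genes tested. The difference between arms recovered 40% and 95% of the same changes, and 44% and 91% of changes set in DT-labelled VAT instead. Recovery among genes of lower level was not simulated.

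Genes were named by a rule. It takes the 12 largest changes in each direction among called genes averaging 10 CPM or more in which no VAT library overlapped lung or liver, up to 4 such genes per list with the smallest adjusted p, and a fixed set of Treg genes. Other list members were named after their values were seen. Some genes that the rule picks were left out of the text. The members, lists and tests were chosen with earlier results of these data known.

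Totals of 3278421 to 5663805 counts limit the precision of levels under a few CPM. Alternatives were RLE size factors, no filter or a stricter one, the compared libraries alone, lung and liver pooled, the replicate number as a block, voom weights in limma, DESeq2 1.42.0, and each library left out. Leaving out the VAT libraries with over 300 CPM of plasma cell markers was added after the data were seen. Equal replicate numbers did not meet the rule for paired samples, since several correlations of their deviations were under 0.1. This does not show that the libraries are unpaired. No 2 libraries of a group agreed within sampling noise.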

Additional observations from a re-analysis of the deposited data

Results flagged for a closer look

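Of 64 values checked across the 4 PBS-labelled VAT libraries (the genes of largest change, the fixed Treg genes, the marker sums and the library totals), 4 had 1 library far from the other 3 by Dixon's 95% criterion, which chance exceeds in about 1 of 20 groups. All 4 were VAT replicate 2. It held 237 CPM of Bace2, an aspartyl protease, against 28.4, 39.9 and 11.4 CPM in VAT replicates 1, 3 and 4. It held 172 CPM of Lrrn4, a leucine-rich repeat protein, against 111 to 117 CPM in the other 3. The mesothelial marker sum, carried by Lrrn4, was 169 CPM in that library and as low as 107 CPM in the others. The sum of innate-like T cell markers reached 17.7 CPM there, against 2.89 to 11.6 CPM in lung and liver.

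Both genes whose difference between VAT and the mean of lung and liver changed with the arm were picked out for that test. Frmd6 differed between the DT and PBS arms by 2.00 and Pdcd1, which encodes the inhibitory receptor PD-1, by -1.52 on the log2 scale, each with an adjusted p of 0.0155 (edgeR), and neither passed without VAT PBS replicate 3.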

How the results depend on the processing

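No called named gene changed sign under any alternative run. The 3500 calls of VAT against the mean of lung and liver ran from 2556 to 3232 with 1 library left out, and fell outside a factor of 1.5 only when VAT replicates 1 and 4 were both left out (2255). The balance of directions did turn. With TMM factors 1958 genes were higher and 1542 lower, against 1744 and 1763 with RLE size factors, 1504 and 1546 at a mean of at least 10 CPM and 1871 and 2026 with DESeq2. Against lung, 1702 higher and 1440 lower became 1508 and 1695 with RLE, 1352 and 1415 with no filter, 1419 and 1489 at a mean of at least 10 CPM and 1714 and 1883 with DESeq2. In the DT arm the balance turned when any 1 library other than liver replicate 6 or VAT replicate 7 was left out, and 1297 and 1079 became 1181 and 1190 with RLE, 1036 and 1072 with no filter, 1351 and 1437 with DESeq2, 1270 and 1361 with the compared libraries alone and 580 and 706 without the VAT libraries rich in plasma cell markers. The median gene of VAT against lung moved to -0.15 with RLE. With 1 library left out, VAT against lung gave 2181 to 2935 calls and VAT against liver 1341 (without liver replicate 2) to 1949. The 111 calls of liver against lung became 277 with no filter on low counts, 226 at a mean of at least 10 CPM, 390 with DESeq2, 396 with voom, 44 with the PBS-labelled libraries alone and 26 to 131 with 1 library left out. The 2376 calls of the DT arm became 1286 without the plasma-marker-rich VAT libraries and 1786 to 2289 with 1 library left out. The difference between arms gave 2 genes, but 135 with no filter, 12 with DESeq2, 6 with voom, 19 without those VAT libraries and 0 to 8 with 1 library left out. The cause was not tested.

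Whether equal replicate numbers mark paired libraries was not settled. Correlations of deviations at equal numbers ran from 0.081 to 0.349 for VAT and liver, beside -0.213 to 0.087 at unequal numbers. For VAT and lung they ran from -0.054 to 0.135, beside -0.122 to 0.177. For liver and lung they ran from -0.094 to 0.054, beside -0.224 to 0.200. In the DT arm equal numbers gave 0.022 to 0.156 and unequal numbers -0.136 to 0.081 over all tissue pairs. With the replicate number as a block the counts were 3232 for VAT against the mean of lung and liver, 2957 against lung, 1976 against liver, 134 for liver against lung, 1131 in the DT arm and 0 for the difference between arms.

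Of the 107 called genes that the naming rule took, 7 lost the call under at least 1 alternative: Areg, Arl4c, Bad, Gpx1, Jun, Sqle and Srxn1. Gpx1 lost it under most of them. Depth limits genes of a few CPM, where 1 read is a large part of the level.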

Other observations

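The VAT libraries differed among themselves in how far they stood from lung and liver. Of 55 named genes called higher in VAT, replicate 4 was the lowest VAT library in 40, replicate 1 in 8, replicate 3 in 5 and replicate 2 in 2. Of 50 named genes called lower, replicate 4 was the highest VAT library in 18 and replicate 1 in 17, against 9 for replicate 3 and 6 for replicate 2. Replicates 4 and 1 were also the libraries with the largest plasma cell marker sums, 685 and 397 CPM. The part of those cells in this order was not tested. The genes were named from the same libraries, so the counts describe these 4 libraries and carry no test.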
